A study of Mus musculus with 6 samples.

Results

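The TAM family comprises the receptor tyrosine kinases Tyro3, Axl and Mertk, and its ligands are Gas6 and protein S, the product of Pros1. All 5 genes were described in mouse bone marrow cells sorted with a surface gate for blood progenitors. The members were taken by name, and each was represented by its brightest probe among those listed with a single gene symbol. All 5 had such a probe, and each had only 1, out of 22180 genes measured on the same arrays.

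Gas6 and protein S are secreted proteins whose vitamin K-dependent Gla domain binds phosphatidylserine, a lipid exposed on dying cells and activated platelets. Their other end binds TAM receptors, so that they bridge the exposed lipid to a phagocyte or to another responding cell. Gas6 binds every TAM receptor, whereas protein S acts on Tyro3 and Mertk and also serves as an anticoagulant cofactor in plasma. The pathway is known for the clearance of dying cells by macrophages and for restraint of innate immune signalling, and endothelial cells are a known source of both ligands.

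The cells were bone marrow LSK cells, that is, cells without lineage markers that carry Sca-1 and Kit on their surface, from C57Bl6 mice at postnatal day 27. All mice carried Tg(Cdh5-Cre/ERT2), a tamoxifen-inducible Cre driven by the promoter of the endothelial gene Cdh5, and a YFP reporter at Rosa 26. Tamoxifen was given at 1, 2 and 3 days of age, and all samples were digested with collagenase for 30 min at 37 °C. Sorting 26 days after the first dose gave 3 YFP-positive and 3 YFP-negative samples. The YFP-negative samples are thus unmarked cells of mice with the same alleles and the same treatment, and the comparison asks how LSK cells marked by Cdh5-driven Cre differ from them. YFP records Cre activity in a cell or in a cell it descends from, so a marked cell need not use Cdh5 at the time of the sort. In the marked samples as a whole, Cdh5 itself was higher by 7.03 on the log2 scale (limma, adjusted p = 0.00086). Whether each replicate is its own mouse, or a pool of mice, is not in the labels, and every p-value therefore reflects only how these samples scatter, part of which may be technical.

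Kit and other surface marker genes of blood progenitors were checked on the same arrays. Of 5 measured genes, 4 were lower in YFP-positive samples past the threshold (Kit, Cd34, Flt3 and Cd48) and Slamf1 did not pass. When any 1 array was left out, 2 or 3 passed as lower. Of the 5, only Kit belongs to the gate as defined above. Ly6a, which encodes Sca-1, had no probe listed. On the log2 scale Kit had values of 6.98, 6.56 and 7.06 in the marked arrays and 7.57, 7.96 and 7.74 in the unmarked ones (limma, adjusted p = 0.0496), and it lost its call whichever array was left out. Flt3, a receptor of early progenitors, fell by 4.17 on the log2 scale (limma, adjusted p = 0.00507). Of 20 endothelial marker genes 17 were higher, among them Kdr, the main VEGF receptor of endothelium, by 6.67, and Pecam1, a junction protein, by 2.75. YFP-positive replicate 3 stood apart from the other YFP-positive arrays in leukocyte genes, of which 14 were measured. Of these, 2 were lower (Vav1, also in the engulfment list, and Cd48, also named above), or 10 without that array. Ptprc, which encodes CD45, and Coro1a, a leukocyte actin regulator, differed by -1.65 and -1.38 and passed only without it (limma, adjusted p = 0.00256 and 0.00427, against 0.353 and 0.347 with all arrays). The mean level of the 14 leukocyte genes was 8.19 in YFP-positive replicate 3 and 5.82 and 6.05 in YFP-positive replicates 1 and 2. It was 8.27 to 8.40 in the YFP-negative arrays. In such bulk samples, fewer cells of a type and less RNA per cell cannot be told apart.

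The promoters of the 3 members that rose, described in turn below, are shown because these genes moved in the same direction. Each sequence is the 250 bases before the transcription start, read 5′ to 3′ on the gene's own strand from RefSeq's annotation of build GRCm38.p6. Pros1 lies on the plus strand at chr16:62854057-62854306, Gas6 on the minus strand at chr8:13494536-13494785 and Mertk on the plus strand at chr2:128698665-128698914. Capitals mark GGAA or its reverse complement TTCC, the core recognised by ETS transcription factors.
Pros1: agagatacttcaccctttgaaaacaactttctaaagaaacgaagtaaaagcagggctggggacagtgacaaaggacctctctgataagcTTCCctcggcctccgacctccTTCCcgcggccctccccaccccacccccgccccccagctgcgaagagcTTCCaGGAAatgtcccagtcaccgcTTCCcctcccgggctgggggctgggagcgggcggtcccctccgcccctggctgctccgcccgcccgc
Gas6: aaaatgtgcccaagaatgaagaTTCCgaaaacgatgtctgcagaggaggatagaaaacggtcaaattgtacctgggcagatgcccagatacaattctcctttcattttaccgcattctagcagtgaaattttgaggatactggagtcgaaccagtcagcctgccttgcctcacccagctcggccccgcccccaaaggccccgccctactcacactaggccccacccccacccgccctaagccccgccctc
Mertk: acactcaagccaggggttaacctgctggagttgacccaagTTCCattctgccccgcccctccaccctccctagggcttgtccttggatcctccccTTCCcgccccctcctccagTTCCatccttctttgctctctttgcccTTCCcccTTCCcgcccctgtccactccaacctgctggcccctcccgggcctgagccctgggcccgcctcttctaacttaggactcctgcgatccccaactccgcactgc

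GGAA occurred 5 times in the Pros1 window, once in the Gas6 window and 5 times in the Mertk window, counting both strands. The same core occurred 3 times before Axl and 2 times before Tyro3. It is a short motif, and 93.4% of 32851 promoter windows of this length held at least 1 copy. The GC box CCGCCC, counted on both strands, occurred 5 times before Pros1, 4 times before Gas6 and 3 times before Mertk, and 32.7% of all windows held it. Axl had 1 copy and Tyro3 3, so the 5 windows have it in common whether or not the gene rose. The core of GATA factors, GATAA, was found in the Pros1 window alone among the 5, and in 22.6% of all windows. The longer ETS form AGGAAG (29.5% of windows) was found only before Axl, where it overlaps a GGAA core. The E box CANNTG (66.2%) occurred once each before Pros1 and Gas6, and the Maf core TGCTGA (16.1%) was in none of the 5 windows. These matches describe the letters only.

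Both ligands and 1 of the receptors were higher in YFP-positive than in YFP-negative LSK samples. Pros1 rose most, by 5.22 ± 0.63 (SE) on the log2 scale, Gas6 rose by 3.14 ± 0.39 and Mertk by 1.74 ± 0.34. Axl measured 0.51 higher and Tyro3 differed by -0.09, and neither passed. Of the 5 members, 3 were higher and 0 lower with limma's moderated test at a Benjamini-Hochberg adjusted p of 0.05 over all genes. Across the 22180 genes, 4.84% passed in either direction, 2.88% as higher and 1.96% as lower in YFP-positive samples. The members were chosen with earlier results of these data known, so these shares are set beside them as description only.

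**Figure D1:**
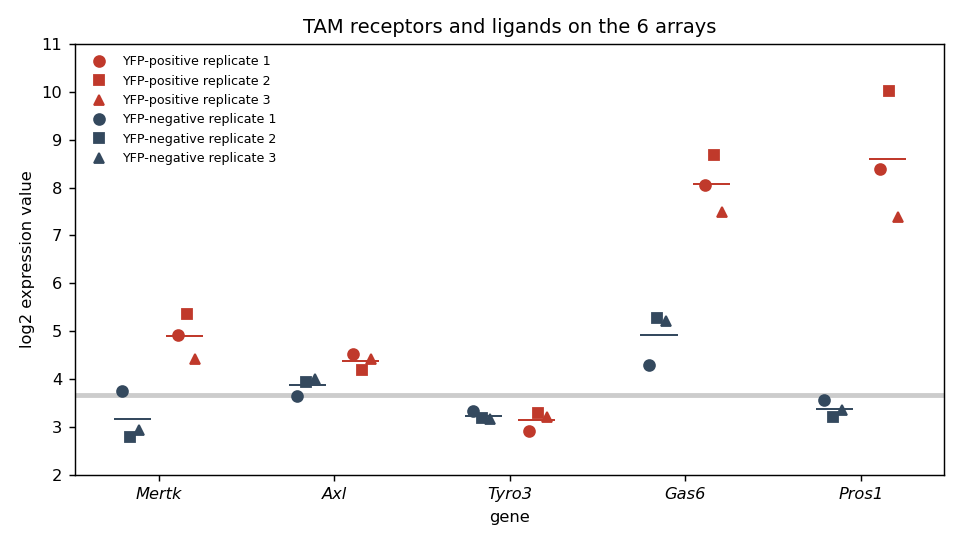
Log2 expression value of each TAM gene (vertical axis) on each of the 6 arrays, with YFP-negative samples at the left and YFP-positive samples at the right of each gene; horizontal bars are group means of 3 arrays and the grey band spans the array medians over all probes, 3.62 to 3.68. The YFP-positive points lie above all YFP-negative points for Mertk, Axl, Gas6 and Pros1, while the Tyro3 groups overlap below the band.

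Pros1, the gene of protein S, measured 8.39, 10.02 and 7.38 in YFP-positive replicates 1, 2 and 3. It measured 3.56, 3.20 and 3.36 in YFP-negative replicates 1, 2 and 3. Every YFP-positive array lay above every YFP-negative array, with a gap of 3.82 between the lowest of the former and the highest of the latter. The means were 8.60 ± 1.33 and 3.37 ± 0.18 (SD, n = 3 each), a difference of 5.22 with a 95% interval from 3.68 to 6.77 (limma, adjusted p = 0.0111). This corresponds to a 37.3-fold difference between the measured values. All 3 YFP-negative values lay below the median of their own array over all probes, 3.62 to 3.65, and a level there cannot be told from background, so the size of the fold is not settled. Pros1 also varied most among the YFP-positive arrays, over a range of 2.64. Its SD there exceeded that of 99.4% of the 639 genes called higher, and its difference exceeded that of 93.4% of them. Pros1 lost its call in the fit without YFP-negative replicate 2 (limma, adjusted p = 0.0528) and in the model without moderation, that is, with no sharing of spread across genes (adjusted p = 0.101).

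Gas6, the ligand that binds every TAM receptor, measured 8.05, 8.68 and 7.48 in YFP-positive replicates 1, 2 and 3. In YFP-negative replicates 1, 2 and 3 it measured 4.30, 5.27 and 5.22. The groups were separated by 2.22, and YFP-negative replicate 1 was the lowest of the 6. The means were 8.07 ± 0.60 and 4.93 ± 0.54 (SD, n = 3 each), a difference of 3.14 with a 95% interval from 2.20 to 4.09 and an 8.84-fold change (limma, adjusted p = 0.0116). In contrast to Pros1, Gas6 was above the array median in the YFP-negative samples too, where 58.8% to 73.3% of genes on the same array had a lower value. Whichever array was left out, Gas6 still passed, with a highest adjusted p of 0.0460 in limma, but it lost its call in the model without moderation (adjusted p = 0.101).

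Mertk, the receptor best known for engulfment of dying cells, measured 4.91, 5.35 and 4.42 in YFP-positive replicates 1, 2 and 3. It measured 3.75, 2.79 and 2.93 in YFP-negative replicates 1, 2 and 3. The groups did not overlap, with a gap of 0.67, and YFP-negative replicate 1 came closest to the marked samples. The means were 4.89 ± 0.47 and 3.16 ± 0.52 (SD, n = 3 each), a difference of 1.74 with a 95% interval from 0.91 to 2.56 and a 3.34-fold change (limma, adjusted p = 0.0460). YFP-negative replicates 2 and 3 lay below their array medians, so this fold can understate the change. The call for Mertk lay close to the threshold. It was lost without YFP-positive replicate 1, YFP-positive replicate 2, YFP-negative replicate 2 or YFP-negative replicate 3 (limma, adjusted p = 0.0392 to 0.141 across all 6 omissions), after quantile normalization (adjusted p = 0.0508) and in the model without moderation (adjusted p = 0.192).

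Axl, the receptor that responds to Gas6 but not to protein S, measured 4.52, 4.18 and 4.42 in YFP-positive replicates 1, 2 and 3. It measured 3.64, 3.95 and 4.01 in YFP-negative replicates 1, 2 and 3. The YFP-positive arrays lay above the YFP-negative ones, but only by 0.17 at the nearest pair, YFP-positive replicate 2 and YFP-negative replicate 3. The means were 4.37 ± 0.17 and 3.87 ± 0.20 (SD, n = 3 each), a difference of 0.51 with a 95% interval from 0.13 to 0.88. On the YFP-negative arrays 42.8% to 52.7% of genes had a lower value than Axl, and replicate 1 lay just below its array median. Axl did not pass (limma, unadjusted p = 0.0156, adjusted p = 0.152), and omitting any 1 array left its adjusted p at 0.158 to 0.346. Mertk, Axl, Gas6 and Pros1 are thus 4 of 5 members whose YFP-positive values lay wholly above the YFP-negative ones, an arrangement found for 10.8% of all genes.

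Tyro3, the receptor most prominent in the nervous system, measured 2.91, 3.30 and 3.21 in YFP-positive replicates 1, 2 and 3. It measured 3.33, 3.18 and 3.17 in YFP-negative replicates 1, 2 and 3. The groups overlapped, and all 6 values lay below the medians of their arrays, so no expression above background can be read from this probe in either population. The means were 3.14 ± 0.20 and 3.23 ± 0.09 (SD, n = 3 each), a difference of -0.09 with a 95% interval from -0.43 to 0.25 (limma, adjusted p = 0.834). The sign of this difference turned to 0.03 without YFP-positive replicate 1.

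**Figure D2:**
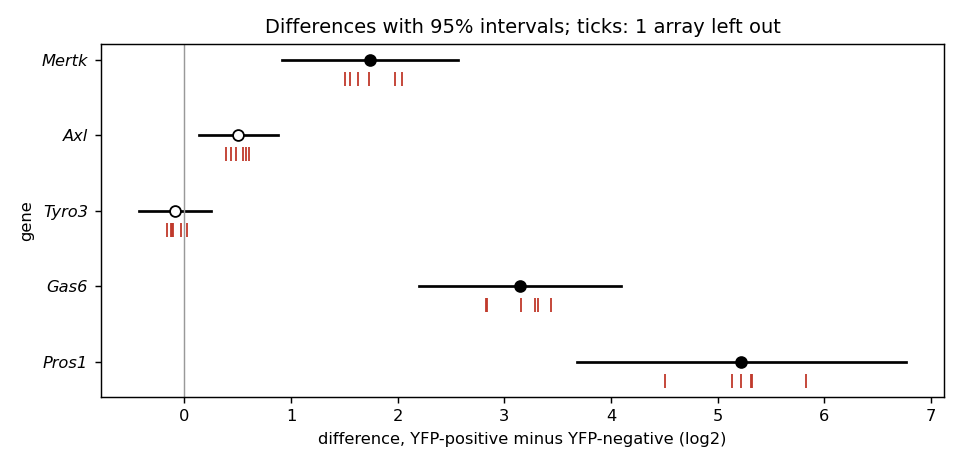
Difference between YFP-positive and YFP-negative means (horizontal axis, log2) for each TAM gene, with its 95% interval from limma as a bar; filled points passed an adjusted p of 0.05, and red ticks below each bar are the differences in the 6 fits that left out 1 array. The ticks stay between 1.51 and 2.04 for Mertk, 2.83 and 3.44 for Gas6, and 4.51 and 5.83 for Pros1, while those of Tyro3 lie on both sides of 0.

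Whether the members changed by unequal amounts was tested on their difference within each array, over 4 pairs. With 3 arrays in each population, the exact two-sided permutation test cannot give a p below 0.1, so no pair could pass. The SE and 95% intervals beside it use the pooled variance of both populations and a t distribution. Mertk minus Tyro3 was 1.21 to 2.06 in the YFP-positive arrays and -0.40 to 0.42 in the YFP-negative arrays, so that Mertk changed by 1.83 ± 0.37 (SE) more than Tyro3 (exact permutation p = 0.1, adjusted p = 0.133). Mertk minus Axl overlapped between the populations, with 0.00 to 1.17 against -1.16 to 0.11, and its change of 1.23 had a 95% interval from -0.25 to 2.72 (exact permutation p = 0.2, adjusted p = 0.2). Axl minus Tyro3 changed by 0.59, with an interval from -0.15 to 1.34 (exact permutation p = 0.1, adjusted p = 0.133). Tyro3 lay below the array medians in both populations, so the pairs with it say little beyond the other receptor's own change. Between the ligands, Gas6 minus Pros1 was -1.34 to 0.11 in YFP-positive and 0.75 to 2.07 in YFP-negative arrays, and the change of -2.08 had an interval from -3.72 to -0.44 (exact permutation p = 0.1, adjusted p = 0.133). The measured rise of Pros1 was thus larger than that of Gas6, within a design that cannot pass the threshold and with Pros1 at background level in the YFP-negative arrays.

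The 3 members that rose ranked the YFP-positive arrays alike. Pros1, Gas6 and Mertk were each highest in replicate 2, intermediate in replicate 1 and lowest in replicate 3. Of the 639 genes called higher, 193 (30.2%) had this order. Axl did not follow it, being lowest in replicate 2. The mean level of the 20 endothelial marker genes had the same order, at 9.12 in YFP-positive replicate 2, 8.91 in replicate 1 and 8.37 in replicate 3, against 4.73 to 5.25 in the YFP-negative arrays. Cdh5, the gene whose promoter drives the Cre, measured 11.63, 11.84 and 11.29 in YFP-positive replicates 1, 2 and 3. In YFP-negative replicates 1, 2 and 3 it measured 5.40, 4.55 and 3.71. The leukocyte genes had another order, as given above, with YFP-positive replicate 3 highest and replicate 1 lowest. The part of either cell type in the TAM differences was not tested.

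**Figure D3:**
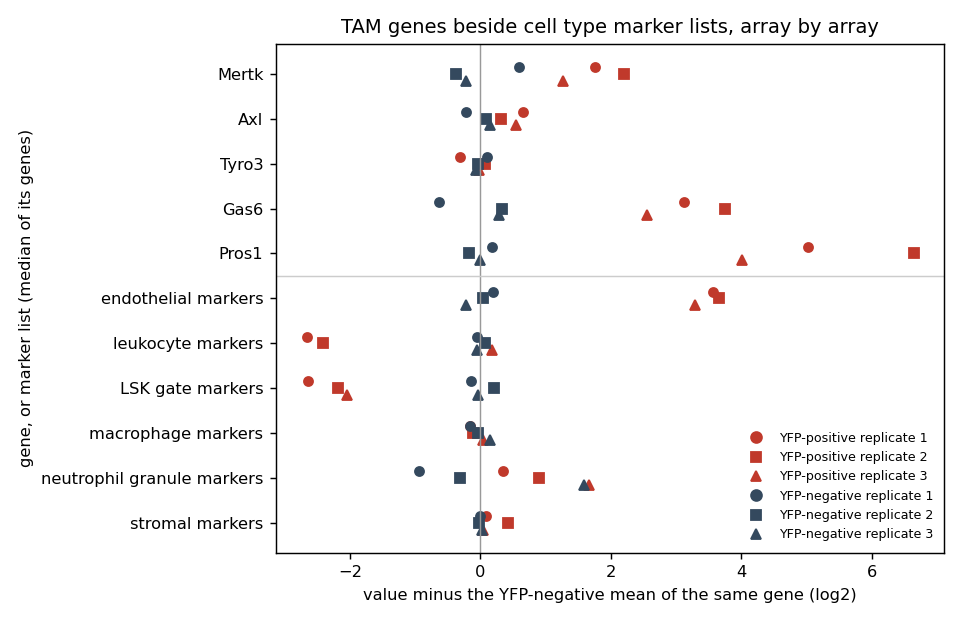
Value on each array minus the YFP-negative mean of the same gene (horizontal axis, log2) for the 5 TAM genes, above the line, and as the median over the genes of 6 marker lists, below it. Endothelial markers lie at 3.28 to 3.66 in the YFP-positive arrays, macrophage markers at -0.16 to 0.04, and YFP-positive replicate 3 alone reaches 0.18 among leukocyte markers where replicates 1 and 2 lie at -2.66 and -2.40.

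Macrophages are a major site of Mertk and Axl in marrow. Of 18 macrophage markers 0 passed limma's test in either direction, while 4.84% of all genes did. For so short a list 0 is near that share, so the count alone says little about macrophages. Their mean level was 4.15 to 4.70 in the YFP-positive and 4.12 to 4.59 in the YFP-negative arrays. Adgre1, which encodes the macrophage surface protein F4/80, had values of 3.36, 3.51 and 3.86 in the marked and 3.51, 3.66 and 3.64 in the unmarked arrays (adjusted p = 0.962 with limma). C1qa, a complement subunit made by resident macrophages, measured 4.70 to 4.90 against 4.54 to 4.92, and Csf1r, the receptor of the macrophage growth factor, 4.22 to 4.85 against 3.99 to 5.20. Cd68, a lysosomal protein of macrophages, varied widely in both populations, from 4.62 to 7.37 and from 5.12 to 7.27.

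Markers of other marrow cells were read in the same way, with the same limit on counts of 0 in short lists. Of 11 stromal markers 0 passed, and their mean level was 3.80 to 4.41 in YFP-positive and 3.62 to 3.72 in YFP-negative arrays. Cxcl12, a chemokine of marrow stroma and sinusoidal endothelium, had values of 5.18, 6.82 and 7.63 in the marked and 4.25 to 5.04 in the unmarked arrays and did not pass (limma, adjusted p = 0.200), except without YFP-positive replicate 1 (adjusted p = 0.0382). Col1a1, the collagen of bone-forming stroma, measured 4.58 to 4.84 against 4.61 to 4.78. Of the 11 stromal markers, 8 measured higher in the marked samples. Lepr had values of 3.72, 6.02 and 4.62 in the marked and 2.84 to 3.00 in the unmarked arrays. Adipoq measured 4.25 to 4.87 against 3.42 to 3.89, and Dcn 3.12 to 3.48 against 2.65 to 2.88. Pdgfrb was lower, at 3.69 to 3.73 against 3.91 to 4.16. None of these passed (limma, adjusted p = 0.0658 to 0.238). Of 6 measured platelet and megakaryocyte genes 0 passed, and Pf4, a platelet chemokine, ranged from 5.48 to 7.44 and from 5.32 to 6.39. Of 10 neutrophil granule genes 0 passed, but their mean level was 8.86 to 10.36 in YFP-positive and 7.59 to 10.07 in YFP-negative arrays. S100a8 measured at least 10.53 on every array. Of 7 erythroid genes 0 passed, and their mean level was 6.21 in YFP-positive replicate 3, 5.01 and 5.08 in the other YFP-positive arrays and 5.39 to 5.77 in the YFP-negative arrays. Of 9 natural killer and B cell genes 1 was lower, Cd79b, a chain of the B cell receptor (3.37 ± 0.10 against 5.37 ± 0.29, SD, n = 3 each, adjusted p = 0.0031 with limma), with a mean level of 3.40 to 3.64 against 3.90 to 4.02.

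The genes around the TAM receptors were described through 6 lists that together held 101 measured genes. Of these, 19 were higher (18.8%), 2 were lower and 80 did not pass, with a median difference of 0.16 against -0.01 over all genes. The corresponding background was 2.88% higher and 1.96% lower. The lists were chosen with earlier results of these data known, so this contrast is a description and not independent evidence. Beside them, 17 of 20 endothelial markers were higher with a median difference of 3.43, and several list members, such as Stab2 and Thbd, are themselves abundant in endothelium. Omitting 1 array at a time gave 9 to 17 higher genes, with 9 for YFP-negative replicate 1 or 3 omitted. The number lower reached 5 without YFP-positive replicate 3.

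**Figure D4:**
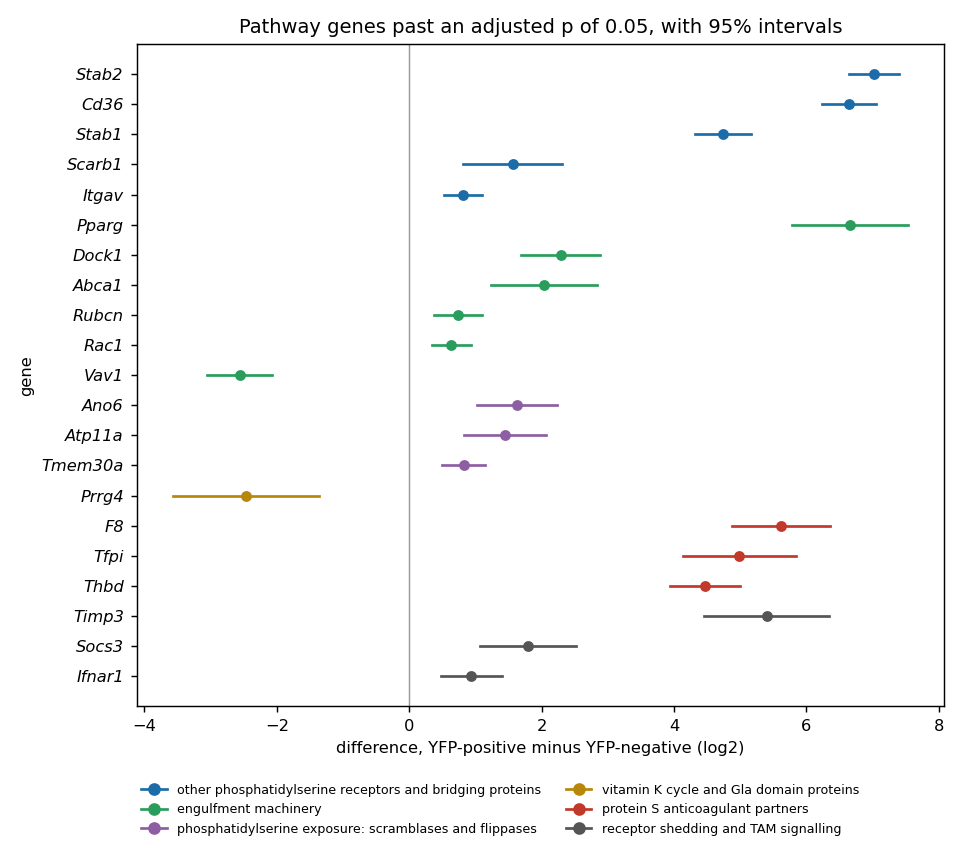
Difference between YFP-positive and YFP-negative means (horizontal axis, log2) with its 95% interval for the 21 pathway genes that passed an adjusted p of 0.05, coloured by list. Stab2, Pparg and Cd36 lie above 6, and Vav1 and Prrg4 are the genes below 0.

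Among 25 other phosphatidylserine receptors and bridging proteins, 5 were higher and 0 lower. Stab2 and Stab1, scavenger receptors of sinusoidal endothelium that also bind phosphatidylserine, rose by 7.02 ± 0.15 (SE) and 4.74 ± 0.17 (limma, adjusted p = 4.3e-05 and 0.000182). Cd36, a scavenger receptor for oxidised lipids and dying cells, rose by 6.64 ± 0.17. Its YFP-negative values of 2.74 to 3.11 were below the array medians, with the same limit on its fold as for Pros1. Scarb1, a lipoprotein receptor, and Itgav, the integrin chain that binds the bridging protein Mfge8, rose by 1.57 and 0.81. Mfge8 itself measured 6.51 ± 0.17 and 6.54 ± 0.36 (SD, n = 3 each) and did not pass. Nor did Timd4, the phosphatidylserine receptor of resident macrophages, at 3.06 ± 0.17 and 3.14 ± 0.24. Cd300a, an inhibitory phosphatidylserine receptor, differed by -0.45 without passing (limma, adjusted p = 0.423). Anxa5, which binds exposed phosphatidylserine, measured 9.46, 9.13 and 8.41 against 7.91 to 8.29 and passed only without YFP-positive replicate 3 (adjusted p = 0.0264, against 0.155 with all arrays, limma). Itgav held its call only with YFP-positive replicate 2 or 3 omitted, and Scarb1 only with YFP-positive replicate 1 omitted (limma, highest adjusted p = 0.0763 and 0.150). As the mean of its 2 probes Itgav differed by 0.58 and did not pass (adjusted p = 0.107).

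Of 19 genes of the engulfment machinery, 5 were higher and 1 lower. Dock1, the exchange factor that works with Elmo proteins to activate Rac1 during engulfment, rose by 2.29 ± 0.25 (SE), from 4.08 to 4.63 in YFP-negative arrays to 6.15 to 6.91 (limma, adjusted p = 0.00704). Dock2, its leukocyte counterpart, had values of 3.65, 3.50 and 6.42 in the marked and 7.33 to 7.76 in the unmarked arrays, and passed only without YFP-positive replicate 3 (adjusted p = 0.000839, against 0.0975 with all arrays, limma). Vav1, a leukocyte exchange factor, fell by 2.56 on the log2 scale and was low in every YFP-positive array, at 5.08 to 5.28 (adjusted p = 0.00219). Rxra, the nuclear partner of Pparg, measured 1.22 higher without passing (adjusted p = 0.0917, limma). Elmo1 measured 9.15 ± 0.06 and 9.38 ± 0.13 (SD, n = 3 each) and did not pass. Pparg, a lipid-sensing nuclear receptor that raises Mertk and other engulfment genes in macrophages, rose by 6.65 ± 0.36. Its YFP-negative values of 2.99 and 3.31 in replicates 1 and 2 were below the array medians, and 4.27 in replicate 3 was above, so the size of its fold is not settled. Abca1, a cholesterol exporter induced in phagocytes, rose by 2.03 ± 0.33 (limma, adjusted p = 0.0253). Among single omissions, that of YFP-positive replicate 3 was the only one to keep its call (highest adjusted p = 0.0993). Rac1, the small GTPase of engulfment, and Rubcn, a regulator of phagosome maturation, rose by 0.63 and 0.74 (limma, adjusted p = 0.0433 and 0.0496). Rubcn passed under none of the 6 single omissions and Rac1 only under that of YFP-positive replicate 3, with limma's adjusted p reaching 0.154 and 0.136.

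Of 11 measured scramblases and flippases, the proteins that expose phosphatidylserine or return it to the inner leaflet, 3 were higher and 0 lower. Ano6, a calcium-activated scramblase, rose by 1.62 ± 0.25 (SE) to 6.49 to 7.38 (limma, adjusted p = 0.0213). The flippase Atp11a rose by 1.45 ± 0.26 and its chaperone Tmem30a by 0.83 ± 0.13. Among the other measured flippases, Atp11b and Atp8a1 measured lower and Atp8b2 higher, and none passed. Atp8b2 differed by 0.42 (limma, adjusted p = 0.353). Atp11b was 5.54, 5.70 and 6.55 in the marked and 6.72 to 7.80 in the unmarked arrays, a difference of -1.32 (limma, adjusted p = 0.124), and Atp8a1 was 4.81 to 5.26 and 5.48 to 6.15, a difference of -0.75 (limma, adjusted p = 0.124). Xkr8, the scramblase cleaved in dying cells, measured 4.99 ± 0.14 and 4.86 ± 0.07 (SD, n = 3 each) and did not pass. Omitting any YFP-negative array ended the call of Ano6, and omitting any array at all ended that of Tmem30a (limma, highest adjusted p = 0.0854 and 0.0981). Atp11a passed only with YFP-positive replicate 3 or YFP-negative replicate 2 omitted (highest adjusted p = 0.118). Atp11a had a smaller difference of 0.95 as the mean of its 2 probes and did not pass there (limma, adjusted p = 0.0571).

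The ligands become active once vitamin K-dependent enzymes have modified them. Of 16 measured genes of the vitamin K cycle and of other Gla domain proteins, 0 were higher and 1 was lower. Ggcx, the carboxylase that modifies Gas6 and protein S, measured 6.41 ± 0.36 and 5.61 ± 0.45 (SD, n = 3 each) and did not pass (limma, adjusted p = 0.214). Vkorc1l1, a vitamin K reductase, measured 5.42 to 5.77 against 5.97 to 7.02 (adjusted p = 0.148) and passed as lower only without YFP-negative replicate 1 (adjusted p = 0.0369). Prrg4, a transmembrane Gla protein, fell by 2.46 on the log2 scale (limma, adjusted p = 0.0389). It passed only with YFP-negative replicate 1 or 2 omitted (highest adjusted p = 0.119).

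Of 9 partners of protein S in the control of clotting, 3 were higher and 0 lower. Thbd, thrombomodulin, which turns thrombin towards activation of protein C, measured 9.03 to 9.68 against 4.53 to 5.03 and rose by 4.47 ± 0.22 (SE) (limma, adjusted p = 0.000394). Tfpi, the tissue factor pathway inhibitor for which protein S is a cofactor, rose by 4.98 ± 0.35. F8, the clotting factor inactivated by activated protein C together with protein S, rose by 5.61 ± 0.30 (limma, adjusted p = 0.000558). Thbd, Tfpi and F8 passed whichever array was omitted. The other substrate, F5, measured 4.83, 4.88 and 5.98 against 4.15 to 5.34 and did not pass (adjusted p = 0.580). Serpina5, the protein C inhibitor, differed by 0.26 and did not pass (limma, adjusted p = 0.523). Proc, which encodes protein C, was below the array medians in both populations, at 3.08 ± 0.04 and 2.95 ± 0.13 (SD, n = 3 each), and its receptor Procr measured 4.52 ± 0.31 and 4.55 ± 0.32.

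Of 22 measured genes of receptor shedding and TAM signalling, 3 were higher and 0 lower. Timp3, an inhibitor of the metalloprotease that sheds Mertk, rose by 5.40 ± 0.39 (SE), from 4.34 to 5.94 in YFP-negative arrays to 10.54 to 10.67 (limma, adjusted p = 0.00169). The sheddases did not pass. Adam17 measured 7.52 ± 0.15 and 6.87 ± 0.39 (SD, n = 3 each), and Adam10 8.73 ± 0.53 and 8.57 ± 0.23. Socs3, a cytokine signalling inhibitor that TAM receptors can induce, rose by 1.79 ± 0.30 (limma, adjusted p = 0.0285), or by 1.16 as the mean of its 2 probes. Its relative Socs1 measured 5.46 ± 0.42 and 5.30 ± 0.37. Ifnar1, the interferon receptor chain through which TAM receptors act, rose by 0.94 ± 0.19 (limma, adjusted p = 0.0488). Socs3 passed only with YFP-positive replicate 1 or 3 omitted, and Ifnar1 only with YFP-positive replicate 3 omitted (highest adjusted p = 0.105 and 0.151). The leukocyte signalling genes Plcg2 and Tec measured 2.53 and 1.84 lower on the log2 scale and passed only without YFP-positive replicate 3 (limma, adjusted p = 0.00884 and 0.0408, against 0.0990 and 0.154 with all arrays).

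The genes whose pattern over the 6 arrays was most like each member that rose were found by the root mean square difference after each gene's own mean was subtracted. The values were not scaled, so a gene is near only if its difference between the populations is of similar size. For Pros1 they were Flt1 (0.31 on the log2 scale), Adcy4 (0.42), Sox18 (0.48), Enpp6 (0.49) and Nid1 (0.50). Flt1, a receptor of vascular endothelial growth factor, shared the wide spread of Pros1 among the YFP-positive arrays, with 8.73, 9.61 and 7.81 in replicates 1, 2 and 3. For Gas6 they were Peak1 (0.18), Plod1 (0.19), Esam (0.22), Stom (0.26) and Parva (0.30). Esam, an adhesion molecule of endothelium and stem cells, measured 7.48, 7.86 and 6.86 in YFP-positive and 3.84 to 4.60 in YFP-negative arrays. For Mertk they were Gchfr (0.17), Pea15a (0.20), Lamb2 (0.23), Zfp36l1 (0.23) and Sirpa (0.24). Sirpa, the receptor for the signal that restrains engulfment, measured 6.95 to 7.50 against 5.39 to 5.76. Between members the measure was 0.94 for Mertk and Gas6, 1.20 for Gas6 and Pros1 and 1.83 for Mertk and Pros1. In the order of nearness among all genes, Gas6 was number 137 to Pros1 and Pros1 number 827 to Gas6, whereas Mertk was number 402 to Gas6 and Gas6 number 7725 to Mertk. Mertk was number 378 to Pros1, and Pros1 number 21716 to Mertk. Predicted or unnamed genes, olfactory and vomeronasal receptors and small RNAs were left out of the nearest genes named, though not of this order. The likeness is a description over 6 arrays in 2 populations and carries no test.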

How the data were processed

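Expression was measured on arrays in 3 YFP-positive and 3 YFP-negative LSK samples. Amplification started from 500 pg of RNA (Ovation Pico V2, per the labels' protocols), and all RNA was isolated at one time. The deposited table holds log2 expression values for 41345 probes, from 1.53 to 13.7. The log2 scale was read from the values. Partek is named in the submitters' processing notes, without a version. How background was corrected, probes summarised and arrays normalized is not given in the sources used here. No detection calls were used, and the number of arrays limits the precision.

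Of 25335 annotated probes, 23521 had 1 symbol, 1814 had several and were left out, and 16010 further probes were unnamed here. Symbols were compared with RefSeq (GRCm38.p6), which changed 0 of them. The brightest probe per gene gave 22180 genes. Differences are YFP-positive minus YFP-negative, tested two-sided with limma 3.58.1 in R 4.3.3 (lmFit, eBayes, population as the only term), and p-values were adjusted by Benjamini-Hochberg over the 22180 genes, with a threshold of 0.05. The procedure was tested on simulated data with 200 changed genes. It recovered 60% of changes of 1.5 and 92% of changes of 3 on the log2 scale, with 9 false calls. A gene that did not pass can therefore still differ. Promoters were matched by symbol for 5 of 5 members.

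The members and gene lists were chosen with earlier results of these data known. Genes were named by rule: the members, up to 4 passing and 2 other genes of smallest p per pathway list, fixed markers, and the 5 nearest profiles of each member that rose. Scarb1, Rac1, Rubcn, Mfge8, Timd4, Elmo1, Xkr8, Atp8b2, Proc, Procr, Adam10, Adam17, Socs1, Cd34, Cd48, Slamf1, Cd79b, Lepr, Adipoq, Dcn and Pdgfrb fall outside it and were named after their values were seen.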

Additional observations from a re-analysis of the deposited data

How the results depend on the processing

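Leaving out 1 array at a time gave differences of 1.51 to 2.04 for Mertk, 2.83 to 3.44 for Gas6, 4.51 to 5.83 for Pros1 and -0.17 to 0.027 for Tyro3, and 1 to 3 TAM genes passed, with 1 (Gas6) left without YFP-negative replicate 2. All genes passing numbered 319 to 668 higher and 111 to 517 lower, pathway genes 9 to 17 higher and 1 to 5 lower, and marker genes 4 to 16 lower. The differences of Adgre1 (-0.17 to 0.082), Csf1r (-0.60 to 0.0020), C1qa (-0.078 to 0.11), Cd68 (-0.85 to 0.53), Col1a1 (-0.11 to 0.018) and Pf4 (-0.14 to 0.84), none of which passed, changed sign in some of these fits.

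With the replicate number as a block, Mertk (1.74) no longer passed (limma, adjusted p = 0.0813) while Gas6 and Pros1 did, and 412 genes passed as higher and 168 as lower, with 11 and 1 among the pathway genes. Deviations of same-numbered arrays correlated at 0.10, 0.08 and 0.17 across genes. That is too little to treat the numbers as pairs, although each array correlated best with its own number. With the unmoderated model Mertk (1.74), Gas6 (3.14) and Pros1 (5.22) all lost their call, so that 0 members passed (4 had an unadjusted p under 0.05), and the counts were 145 higher and 35 lower over all genes, 8 and 1 among pathway genes and 7 and 3 among markers. Quantile normalization left Mertk at 1.74 just short of the threshold (adjusted p = 0.0508). The causes were not tested. Trended and robust moderation, the mean of probes, centring on array medians and the filter on level changed no member's call, and Tyro3 fell under that filter. Levels near or below the array medians (for example Tyro3, and Pros1, Mertk, Axl, Cd36, Pparg and Kdr in YFP-negative arrays) limit what can be read from the folds.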
